A study of Mus musculus with 8 samples.

Results

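The 38 cell cycle genes described here were taken by symbol from a fixed list and matched to gene identifiers; they are 38 of 17578 genes in the count tables of 8 single-cell libraries. All 38 were found in the library tables and 33 in the deposited expression table of 6933 genes, which does not list Ccne1, Ccne2, Aurka, Stmn1 or Cks2. By role, 12 members act in S phase, 18 in G2 and mitosis, 3 are D cyclins, and 5 (Stmn1, Tubb5, Tuba1b, Hmgb2 and H2afz) are abundant transcripts that are not limited to a phase. The assignment to S or G2/M follows textbook roles and took no values of these data as input. The members and lists were, however, chosen with earlier results of these data known.

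The libraries came from tumours of 4T1 cells, a mouse mammary carcinoma line, grown under the skin of Balb/c mice and collected at day 10. Digestion took 1 h in a protease from Bacillus licheniformis, at 37C or at 4C, without or with 2 nM of the transcription inhibitor actinomycin D. This gives 4 groups: 37C no inhibitor, 37C inhibitor, 4C no inhibitor and 4C inhibitor. How far this dose stopped transcription was not examined here. Each group is 1 suspension, pooled from 6 pieces of different mice and divided into aliquots A and B, so every p-value reflects differences among aliquots and not among mice or digestions. Warm digestion used a heated dissociator and cold digestion a model without heating, so temperature and instrument cannot be told apart. Erythrocyte lysis and removal of debris and dead cells followed. Mouse age was not given in the sources used here. Cells were captured on the ddSEQ system with a 3' kit that counts molecules (UMIs), so levels are compared between samples for 1 gene and never between genes.

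As background, D cyclins couple growth signals to entry into the cycle, and their partner kinases release E2F factors, which switch on genes for DNA replication. In S phase the MCM helicase, the clamp Pcna and the enzymes of nucleotide supply work together to copy the genome. Genes of G2 and mitosis are induced later, from promoters that often carry a CHR element and CCAAT boxes, and their products build the spindle, bind kinetochores and drive the exit from mitosis. In tumour tissue, dividing carcinoma cells and activated lymphocytes are known sources of both sets.

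The deposited cell table names 654 cells of 200 to 4963 UMIs, 433 at 37C and 221 at 4C. They are 325 tumour cells, 109 macrophages, 154 T cells and 66 NK cells. Annotated cells of a 37C library held 158314 to 199929 UMIs and those of a 4C library 23212 to 65149. Aliquots A and B varied beyond Poisson counting error, with a chi-square of 1.53 to 2.05 for each degree of freedom. Marker genes of T cells, NK cells and macrophages were highest in the type so named, whereas in tumour cells 5 of 9 epithelial markers had UMIs (Krt7, Krt8, Krt18, Krt19 and Cldn4) and Epcam, Cdh1, Cldn3 and Cldn7 were at 0. Some of the 17 macrophages at 4C also carried mast cell and basophil markers or neutrophil markers. Over all 17 the first made up 1.56% of UMIs against 0.273% in the 92 at 37C, and the second 0.548% against 0.0102%. At 4C these markers were seen in 41.2% and 17.6% of the cells. Of the 174 mast cell and basophil UMIs at 4C, 158 lay in no inhibitor A (8 cells). Of the 61 neutrophil UMIs there, 57 lay in no inhibitor B (3 cells). Only 2 of the 654 cells shared a barcode sequence with an annotated cell of another library. A further 105 barcodes had over 5000 UMIs and no entry in the cell table; they are called large barcodes here. The authors' handling of doublets was not given in the sources used here, and no doublet caller was run.

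S and G2/M transcripts were richest in tumour cells and T cells, and low in macrophages and NK cells. The 12 S members made up 0.11% of the UMIs of tumour cells, 0.128% in T cells, 0.0657% in NK cells and 0.0296% in macrophages. The 18 G2/M members made up 0.159% in tumour cells, 0.106% in T cells, 0.0525% in macrophages and 0.0502% in NK cells. Summed, the 30 genes were at 0.268% in tumour cells, 0.233% in T cells, 0.116% in NK cells and 0.0822% in macrophages. The types come from the authors' clusters of these same cells, so these levels are a description without a test.

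The share of cells with at least 1 UMI of an S or G2/M member followed depth as well as type. It was 72.6% in tumour cells (236 of 325, at a median of 1359 UMIs per cell), 33.9% in macrophages (37 of 109, median 1133), 39% in T cells (60 of 154, median 503.5) and 42.4% in NK cells (28 of 66, median 599). When each cell was thinned to 200 UMIs, the expected shares were 33.6% in tumour cells, 20% in T cells, 18.4% in NK cells and 10.7% in macrophages, with no cell left out for depth. Pooled over temperatures, tumour cells were thus the highest at equal depth and macrophages the lowest, while T cells and NK cells lay close together. At 4C alone the thinned shares were 22.6% in NK cells, 20.3% in tumour cells, 16.6% in T cells and 14% in macrophages. Tumour cells were not the highest there. UMIs of at least 2 different S or G2/M genes were found in 178 tumour cells, 27 T cells, 17 macrophages and 10 NK cells.

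RNA outside cells also gives single UMIs. Tumour markers were seen in 5 of 154 T cells (3.25%) and Ccnd1, a gene of the tumour cells, in 3 of them, at the T cells' median of 503.5 UMIs. T cell markers were seen in 17 of 325 tumour cells, at a median of 1359 UMIs. In the 22088 barcodes of at most 100 UMIs, S and G2/M members summed to 0.203% of UMIs, which is above the level in macrophages and NK cells and below that in T cells and tumour cells. A single UMI in a macrophage or an NK cell therefore cannot be told from free RNA by level alone, and none of these shares is a count of dividing cells.

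Among tumour cells, 53 carried UMIs of S members only, 54 of G2/M members only, 129 of both and 89 of neither. Per tumour cell the summed share of S and G2/M UMIs had a median of 0.154% and reached 1.35%. Across the 325 tumour cells, the percent of UMIs from S members and the percent from G2/M members gave a Pearson r of 0.11 and a Spearman rho of 0.33. These describe sparse counts in which both values share a cell's depth. The plot of single barcodes shows the low values as curved lines, each of which is 1, 2 or 3 molecules at falling depth.

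**Figure D1:**
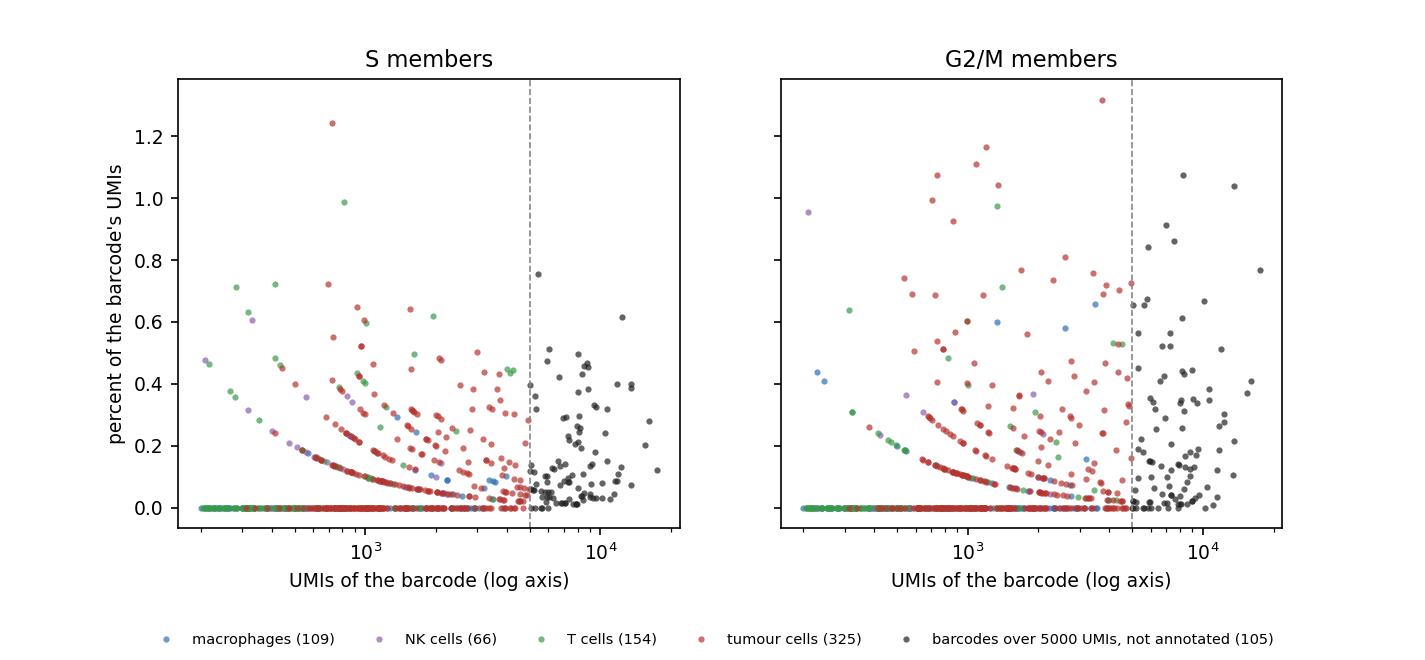
Percent of a barcode's UMIs from the 12 S members (left) and the 18 G2/M members (right) against its UMIs on a log axis; each point is 1 barcode, coloured by annotated type, and the dashed line marks 5000 UMIs. The 105 large barcodes reached a summed S and G2/M share of 1.11% and the 325 tumour cells 1.35%.

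The balance between the phases was described from pooled UMIs of each type. S members gave 40.9% of the S and G2/M UMIs of tumour cells (exact 95% binomial interval 38.4 to 43.4, counting error only), 36.1% in macrophages (27.6 to 45.3), 54.8% in T cells (48.8 to 60.7) and 56.7% in NK cells (43.2 to 69.4). Libraries carried the T cell value unequally: it ranged from 24.5% in 37C no inhibitor B to 82% in 37C inhibitor A (11 cells) and 100% in 4C inhibitor A (6 UMIs). Without 37C inhibitor A it was 48.9% (42.3 to 55.5), an interval that reaches that of tumour cells, and in T cells at 37C without inhibitor it was 39.6% (30.3 to 49.6). The interval of NK cells rests on 60 UMIs and reaches down to the tumour cells' value. In T cells the balance also depended on the genes used: it was 47.4% with Hmgb2 counted as a G2/M gene and 42.5% (37.6 to 47.5) from non-member S and mitosis genes, which gave 40.5% (38.5 to 42.6) in tumour cells. A difference in balance between T cells and tumour cells was therefore not shown.

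Members also marked types one by one. The D cyclins are the regulatory subunits of Cdk4 and Cdk6. Ccnd1 stood at 1779 counts per 1000000 UMIs (CPM) in tumour cells, 209 in macrophages, 57.9 in NK cells and 33 in T cells. Ccnd2 went the other way, with 39.5 CPM in tumour cells, 121 in macrophages, 734 in NK cells and 931 in T cells. Ccnd3 was at 80.7 CPM in tumour cells, 135 in macrophages, 338 in T cells and 541 in NK cells. Ccnd1 had a UMI in 229 of 325 tumour cells and 3 of 154 T cells, whereas Ccnd2 had one in 22 tumour cells and 53 T cells.

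Tubb5, a beta tubulin, was at 1447 CPM in tumour cells, 758 in T cells, 367 in NK cells and 317 in macrophages. Tuba1b, an alpha tubulin, was at 398, 330, 155 and 229 CPM in the same order of types. Tubulin genes are similar to one another in coding sequence, and H2afz is a variant of the H2A histones. How reads were divided within these families was not checked and is uncertain. Hmgb2, a chromatin protein of dividing and lymphoid cells, was at 127 CPM in tumour cells and 53.9 in macrophages, and at 363 and 328 CPM in T cells and NK cells. Those lymphocyte levels were above the tumour level, as for Ccnd2 and Ccnd3.

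Among phase genes, Cks1b, which binds Cdk1 and Cdk2, was at 206 CPM in tumour cells and at 26.9 in macrophages, 49.5 in T cells and 38.6 in NK cells. Mcm6, a helicase subunit, was at 203, 26.9, 124 and 155 CPM in tumour cells, macrophages, T cells and NK cells. Pcna was highest in T cells at 305 CPM, against 167 in tumour cells, 94.3 in macrophages and 77.3 in NK cells. The centromeric histone gene Cenpa was also highest in T cells, at 280 CPM, with 213 in NK cells, 189 in tumour cells and 108 in macrophages. Top2a, the topoisomerase that untangles chromosomes, was at nearly the same level in tumour cells (175 CPM) and T cells (173 CPM), and at 33.7 in macrophages and 38.6 in NK cells. Mki67, the classic proliferation antigen, had 21 UMIs in tumour cells, 4 in T cells and 0 in macrophages and NK cells, too few to order the types.

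**Figure D2:**
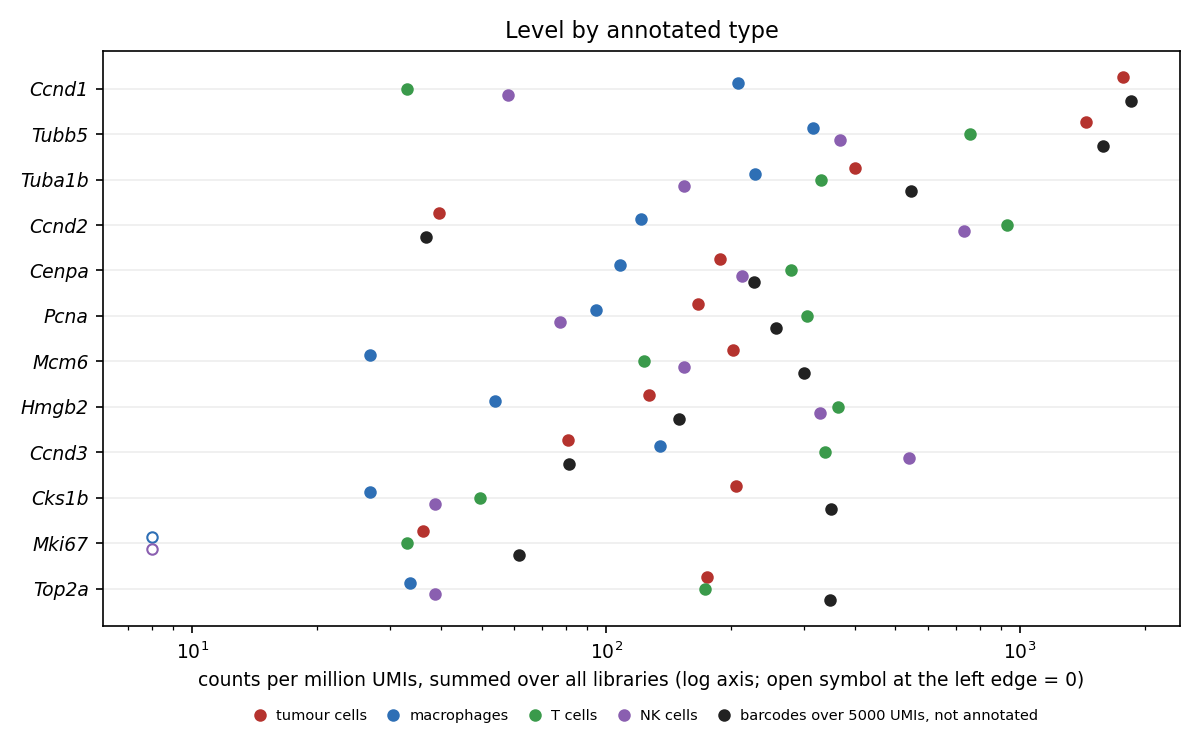
Counts per 1000000 UMIs (log axis) of 12 members, each on its own row, summed over all libraries for the 4 annotated types and the large barcodes; open symbols at the left edge stand for 0, and rows are not compared with each other. Ccnd1 runs from 33 CPM in T cells to 1779 in tumour cells, and Ccnd2 from 39.5 in tumour cells to 931 in T cells.

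Several members were barely measured. Stmn1, the tubulin-destabilising stathmin, had 1 UMI in all 23980 barcodes and 0 in annotated cells. Cks2 had 9 UMIs in annotated cells, all at 37C, where the depth was greater. Ccne1 and Ccne2, the E cyclins of S phase entry, had 16 and 10 UMIs in annotated cells, and Aurka, a mitotic kinase, had 14. None of these 5 genes entered the tests on annotated cells.

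The groups were first compared by summed level. In annotated cells the S members were at 0.0948% ± 0.0199 of UMIs at 37C and 0.0973% ± 0.0398 at 4C (mean ± SD, n = 4 libraries each), so the temperatures overlapped. The G2/M members were at 0.136% ± 0.0453 at 37C and 0.0906% ± 0.054 at 4C, again with overlap. In tumour cells the sum of both sets was 0.207, 0.286, 0.254 and 0.369% in the 37C libraries (no inhibitor A, no inhibitor B, inhibitor A, inhibitor B). In the 4C libraries, in the same order, it was 0.289, 0.104, 0.214 and 0.17%. The highest 4C library lay above 3 of the 4 libraries at 37C, and the means, 0.279% ± 0.0679 and 0.194% ± 0.078 (SD, n = 4), were apart by little more than the SDs.

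**Figure D3:**
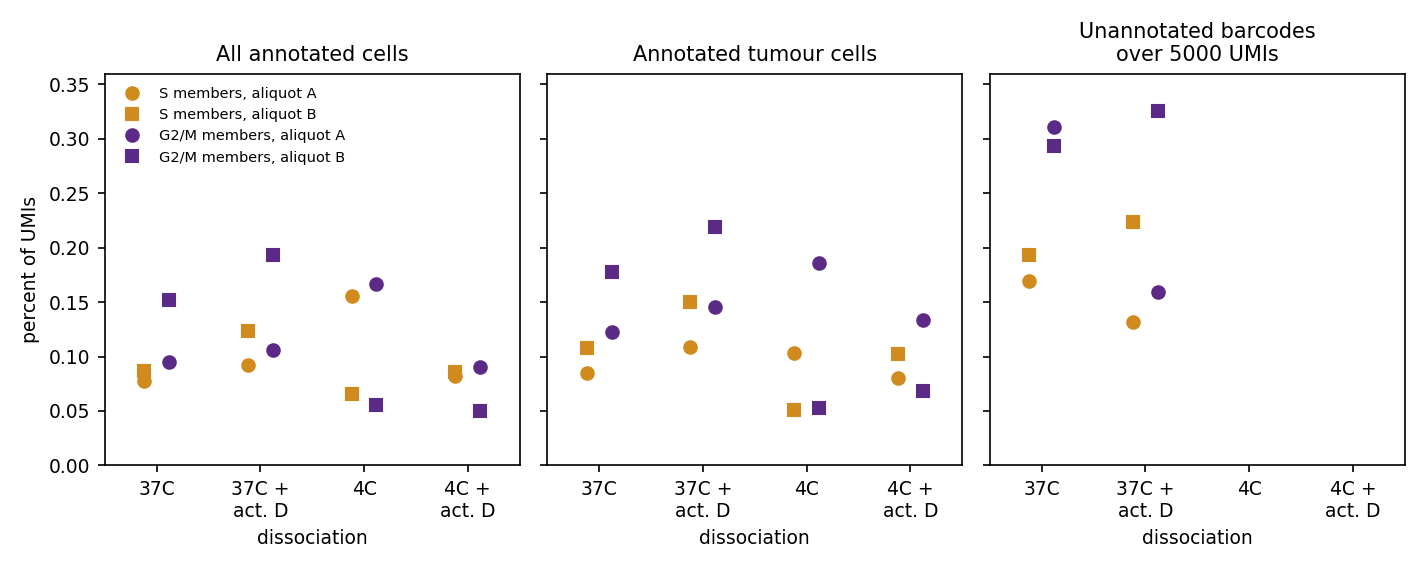
Percent of UMIs from the S members and the G2/M members for all annotated cells, tumour cells and large barcodes (panels); each point is 1 library, circles are aliquot A and squares B, act. D is the inhibitor, and the single large barcode at 4C is not drawn. Tumour cells of the 37C libraries sum to 0.207 to 0.369% over both sets and those of the 4C libraries to 0.104 to 0.289%.

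The S share of phase UMIs in annotated cells was 44.9, 36.4, 46.6 and 38.9% in the 37C libraries and 48.2, 54.4, 47.5 and 63.3% in the 4C libraries, in the order no inhibitor A and B, then inhibitor A and B. Every 4C library lay above every 37C library by these genes, but not by others. With Hmgb2 counted as a G2/M gene, 37C inhibitor A (44.4%) lay above 4C inhibitor A (42.2%) and 4C no inhibitor A (44.3%). From non-member genes, 37C no inhibitor B (42.8%) lay above 4C inhibitor A (39.6%). Pooled, the share was 41.1% at 37C (38.7 to 43.5) and 52.1% at 4C (46.8 to 57.5). Cell makeup moved with it, as T cells made up 16.6% of the annotated cells in the 37C libraries and 37.1% in the 4C libraries; its part in the result was not tested. T cells themselves had an S share of 49.5% at 37C and 64.9% at 4C. Within tumour cells the libraries overlapped, with 40.9, 37.8, 42.7 and 40.7% at 37C and 35.6, 48.9, 37.5 and 60% at 4C. In sums over a library, fewer cells of a type and less RNA per cell cannot be told apart.

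By cell, 193 of 239 tumour cells at 37C (80.8%, median 1557 UMIs) and 43 of 86 at 4C (50%, median 1082.5) had an S or G2/M UMI. At 200 UMIs per cell the expected shares were 38.4% and 20.3%. In T cells the unthinned shares were 54.2% of 72 cells at 37C (median 831.5 UMIs) and 25.6% of 82 cells at 4C (median 342.5), and the thinned shares were 23.8% and 16.6%. By group the thinned T cell shares were 20.3% at 37C and 19.7% at 4C without inhibitor, and 32.3% and 12.5% with inhibitor. At 500 UMIs the order of the temperatures turned, with 41.7% at 37C and 45.3% at 4C, after leaving out 17 and 58 shallower T cells. Macrophages and NK cells had the opposite order after thinning, 10.1% at 37C against 14% at 4C and 13.4% against 22.6%. Those 4C values rest on 17 macrophages and 36 NK cells. Cells of 1 temperature come from 2 suspensions, and these shares were not tested. The annotated T cells also differed in markers of other types. B cell markers were at 0.0711% of their UMIs at 37C and 0.00503% at 4C, and dendritic markers at 0.0859% and 0.00503%. Neutrophil markers went the other way, at 0.00245% and 0.0754%. The part of such cells or RNA in T cell values by temperature was not tested.

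Single members were tested on UMI sums of a library's annotated cells, with edgeR's quasi-likelihood test and Benjamini-Hochberg adjustment over all 3391 genes that passed a filter on low counts. Positive log2 values mean higher at 37C. Of the 38 members 21 passed the filter, 7 of S, 7 of G2/M, the 3 D cyclins and 4 abundant genes, and a gene could pass through its level at 1 temperature alone. At an adjusted p under 0.05, 3.98% of all genes were called, and of the 21 members Ccnd3 alone, which was lower at 37C. Positive values were found for 13 members, the median over the 21 members was 0.33 against 0.04 over all genes, and 5 had an unadjusted p under 0.05, against 16.4% of all genes.

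Ccnd3 (chr17:47505051-47599691, plus strand, GRCm38) was at 120, 140, 105 and 76.6 CPM in the 37C libraries and at 398, 338, 172 and 248 CPM in the 4C libraries, in the order no inhibitor A and B, then inhibitor A and B. All 4 libraries at 4C were above all 4 at 37C, and the means were 110 ± 26.6 and 289 ± 99.3 CPM (SD, n = 4). The log2 difference was -1.32 (SE 0.30, edgeR quasi-likelihood adjusted p = 0.0136). Without 4C inhibitor B it was -0.96 and no longer called (adjusted p = 0.374), and DESeq2's Wald test gave an adjusted p of 0.0703. Ccnd3 is a gene of T cells and NK cells here, and those types gave 27.8, 18.6, 13.6 and 5.63% of the UMIs of the 37C sums and 31.8, 28.3, 30.1 and 40.9% of the 4C sums, without overlap. T cell markers, with all 10 detected, ranged from 0.0628 to 0.227% of UMIs at 37C and 0.182 to 0.334% at 4C, and NK cell markers, all 8 detected, from 0.0317 to 0.17% and from 0.151 to 0.415%. Their part in the result was not tested. Within T cells alone Ccnd3 was at 222, 289, 245 and 105 CPM at 37C and 777, 621, 530 and 207 CPM at 4C, on 1 to 9 UMIs per library, which overlap and were too few to enter the test.

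The other D cyclins were not called. Ccnd2 had a log2 difference of -0.66 (SE 0.36, adjusted p = 0.379) and Ccnd1 one of 0.17 (SE 0.23, adjusted p = 0.785). Both overlapped between temperatures in annotated cells, where Ccnd2 ranged from 92 to 423 CPM at 37C and from 261 to 360 at 4C.

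None of the 7 S members tested was called in that fit of edgeR's quasi-likelihood test, and their median log2 difference was -0.12. The helicase subunits had values of 0.41 for Mcm6 (SE 0.36, adjusted p = 0.641), 0.18 for Mcm7 (SE 0.42, adjusted p = 0.887), -0.24 for Mcm5 (SE 0.42, adjusted p = 0.845), -0.57 for Mcm4 (SE 0.57, adjusted p = 0.694) and -0.68 for Mcm2 (SE 0.62, adjusted p = 0.652). Pcna was at -0.12 (SE 0.35, adjusted p = 0.916) and Rrm2, the small subunit of ribonucleotide reductase, at -0.06 (SE 0.50, adjusted p = 0.971). These errors leave room for changes of either sign, and leaving out single libraries turned the sign of Mcm2, Mcm5, Mcm7, Pcna and Rrm2.

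None of the 7 G2/M members tested was called either, though all 7 values were positive, with a median of 1.20. Ube2c, the ubiquitin-conjugating enzyme of the anaphase-promoting complex, had the largest value, 1.69 (SE 0.57, adjusted p = 0.105). Its partner in that machinery, the activator Cdc20, was at 1.26 (SE 0.62, adjusted p = 0.318). The mitotic cyclin gene Ccnb2 was at 1.20 (SE 0.51, adjusted p = 0.229) and Birc5, the survivin subunit of the chromosomal passenger complex, at 1.20 (SE 0.50, adjusted p = 0.22). Cks1b was at 0.91 (SE 0.47, adjusted p = 0.346), Cenpa at 0.62 (SE 0.44, adjusted p = 0.535) and Top2a at 0.33 (SE 0.49, adjusted p = 0.809), all by edgeR's quasi-likelihood test. Ube2c was at 63.2, 97.2, 120 and 199 CPM at 37C, and 75.9, 15.3, 43.1 and 22.6 CPM at 4C, with 4C no inhibitor A above the lowest 37C library. Its 4C levels rest on few UMIs, as those sums held 23212 to 65149 UMIs over all genes.

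Of the abundant members Tuba1b came nearest to a call, with a log2 difference of 1.11 (SE 0.34, edgeR quasi-likelihood adjusted p = 0.0741). Tubb5 was at 0.33 (SE 0.21, adjusted p = 0.482), the variant histone gene H2afz at 0.55 (SE 0.42, adjusted p = 0.576) and Hmgb2 at -0.59 (SE 0.35, adjusted p = 0.423). Of 90 further cell cycle genes that are not members, 22 passed the filter and 0 were called; the nearest was Tubb4b, another tubulin, at 1.34 (adjusted p = 0.0529). Their median was 0.20.

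The 17 members that did not pass the filter had 0 to 65 UMIs in annotated cells. Those of S phase were Rrm1 with 65 UMIs, Mcm3 with 53, Tyms, the thymidylate synthase, with 47, Ccne1 and Ccne2. Those of mitosis were Plk1, a kinase of mitotic entry and exit, with 53, Tpx2, a spindle assembly factor, with 52, the cyclin genes Ccna2 with 44 and Ccnb1 with 26, Cdk1 with 41, the phosphatase gene Cdkn3 with 33, the kinetochore gene Cenpf with 26, Mki67 with 25, the passenger kinase Aurkb with 21, Aurka and Cks2. Stmn1 was the abundant gene among them. Tumour cells held most of these UMIs for many of them, as for Plk1 (50 of 53), Tyms (43 of 47) and Tpx2 (44 of 52), and fewer for Mcm3 (31 of 53, with 16 in T cells). The members in the test are thus those with more UMIs and speak for the list only in part.

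**Figure D4:**
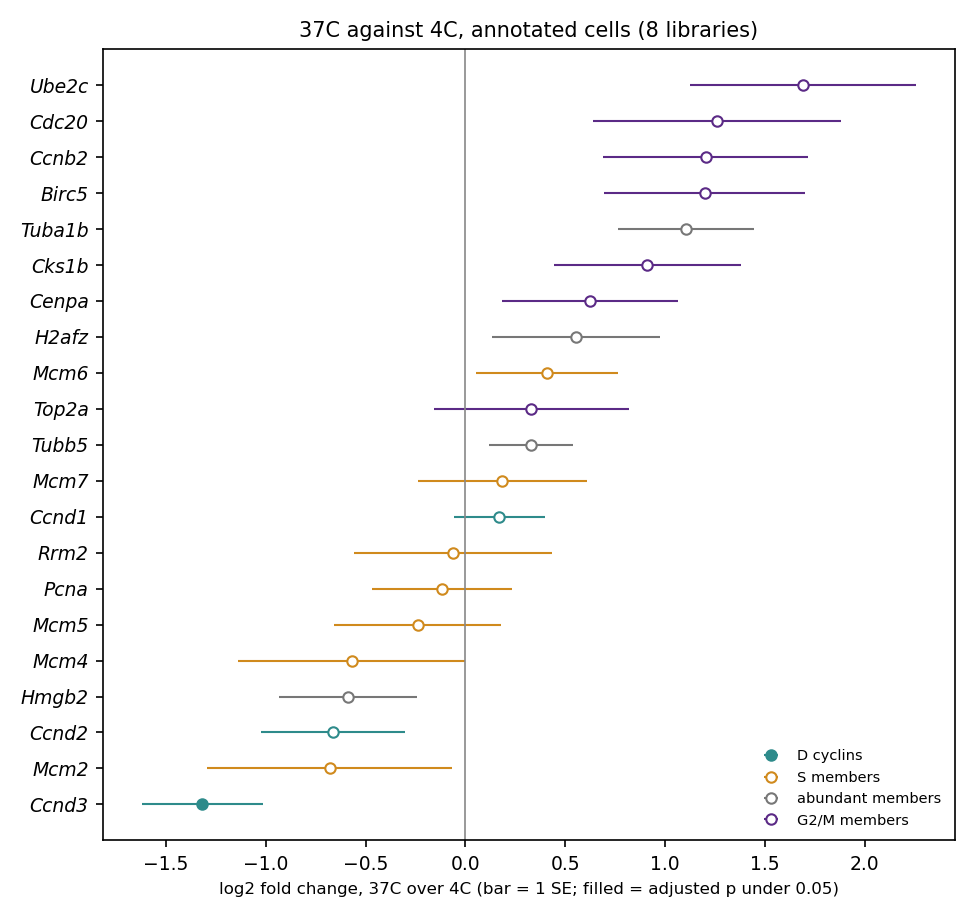
Log2 difference between 37C and 4C in annotated cells for the 21 members tested, with bars of 1 SE, sorted by size and coloured by role; a filled symbol marks an adjusted p under 0.05. Ccnd3 at -1.32 is the called member, and all 7 G2/M members lie to the right of 0.

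Within annotated tumour cells, 14 members passed the filter and 1 was called, against 1.42% of the 1756 genes tested. Tuba1b (chr15:98931425-98934565, minus strand) was higher at 37C by 1.5 on the log2 scale (SE 0.38, edgeR quasi-likelihood adjusted p = 0.0267). Its levels were 423, 274, 457 and 620 CPM at 37C and 99.8, 66.1, 468 and 170 CPM at 4C, so 4C inhibitor A lay among the 37C libraries. The 4C levels rest on few UMIs, as tumour cell sums at 4C held 14959 to 45375 UMIs over all genes. Without 37C inhibitor B it was not called (1.41, adjusted p = 0.0726). RNA of other types also entered these sums: macrophage markers were at 0.0237% of tumour cell UMIs at 37C and 0.00702% at 4C, and fibroblast markers at 0.0162% and 0.0307%. Their part in the result was not tested. Of the 14 members 13 had positive values, with a median of 0.59 against 0.02 over all genes, and 4 had an unadjusted p under 0.05, against 13.1% of all genes. Among them Birc5 was at 1.40 (adjusted p = 0.187), Mcm6 at 0.92 (adjusted p = 0.356) and Ube2c at 1.12 (adjusted p = 0.459), while Ccnd1 was at 0.01 (adjusted p = 0.996). In T cells 3 members were tested and 0 called, against 9.57% of 230 genes, and 0 had an unadjusted p under 0.05 (23.9% of genes). Ccnd2 was there at 0.50 and Hmgb2 at -0.40.

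The temperature contrast was also split by inhibitor, over the same annotated cells. Without inhibitor 1 of 21 members was called, Ccnd3 again at -1.47 (SE 0.36, edgeR quasi-likelihood adjusted p = 0.0498), against 1.06% of all genes, with 2 members at an unadjusted p under 0.05, against 10% of all genes. That call sits at the threshold: with DESeq2's size factors the adjusted p was 0.0526, and it was lost without any 1 of the 4 no inhibitor libraries, with adjusted p values from 0.123 to 0.287, and without either 4C inhibitor library (0.0778 and 0.0737). With inhibitor 0 of 21 were called against 1.8% of all genes, 4 had an unadjusted p under 0.05 (13.7% over the whole fit), and DESeq2's Wald test called 0, with 1 under 0.05. By edgeR's quasi-likelihood test the smallest p values were those of Ube2c (2.48, SE 0.85, adjusted p = 0.169) and Tuba1b (1.41, SE 0.51, adjusted p = 0.193). Ube2c had few UMIs at 4C. Ccnd3 had -1.16 there (adjusted p = 0.269).

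The interaction tests whether the temperature effect differed between suspensions, as the effect without minus that with inhibitor. It called 0 of 21 members by edgeR's quasi-likelihood test and 0 of all genes (0%), with 0 members at an unadjusted p under 0.05 (7.37% over the whole fit) by either edgeR or DESeq2. The smallest p values were those of Pcna (-1.17, SE 0.69, adjusted p = 0.728) and Top2a (-1.59, SE 0.95, adjusted p = 0.746). Standard errors of this size leave large differences undetectable.

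Actinomycin D called no member either. At 37C 0 of 21 were called in annotated cells, against 1.21% of all genes, 4 had an unadjusted p under 0.05 (8.43% over the whole fit), and DESeq2's Wald test called 0, with 0 under 0.05. Ccnd2 had the smallest p, at -1.10 with inhibitor (SE 0.43, edgeR quasi-likelihood adjusted p = 0.38): it was at 423 and 122 CPM without and 155 and 92 CPM with inhibitor, so 37C no inhibitor A alone stood high. Pcna was at 0.88 (SE 0.37, edgeR quasi-likelihood adjusted p = 0.476), with 94.7 and 134 CPM without and 205 and 209 CPM with inhibitor. T and NK cells, where Ccnd2 is high, gave 27.8 and 18.6% of UMIs without and 13.6 and 5.63% with inhibitor; their part was not tested. In tumour cells 0 of 14 were called against 0.911% of genes, with 2 at an unadjusted p under 0.05 (6.09% over the whole fit), Pcna at 1.06 (adjusted p = 0.649) and Mcm2 at 1.51 (adjusted p = 0.792). At 4C 0 of 21 and 0 of all genes were called (0%), with 1 member at an unadjusted p under 0.05 (5.07% over the whole fit) by edgeR and 1 by DESeq2's Wald test. Top2a had the smallest p there (-1.97, adjusted p = 0.913): 360 and 107 CPM without and 43.1 and 67.7 CPM with inhibitor, on few UMIs.

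The 105 large barcodes were nearly all at 37C: 16, 23, 41 and 24 in the 37C libraries (no inhibitor A and B, inhibitor A and B) and 1 at 4C, in no inhibitor A. They held 35.6% of all UMIs at 37C and 1.09% at 4C, with a median of 7630 and a highest value of 17460 UMIs. No annotated cell had over 5000 UMIs. Tumour markers made up 0.14% of their UMIs, close to the 0.161% of tumour cells, and were seen in 98.1% of them. Macrophage markers were at 0.013%, against 0.0204% in tumour cells and 2.69% in macrophages, T cell markers at 0.00721%, against 0.951% in T cells, and NK cell markers at 0.0013%. Fibroblast markers were at 0.0416% against 0.0191% in tumour cells. The libraries differed in this: fibroblast markers were at 0.00461 and 0.00626% in 37C no inhibitor A and B, and at 0.0721 and 0.0453% in 37C inhibitor A and B. Of the 61 T cell marker UMIs 57 lay in 37C inhibitor A, where such UMIs were seen in 4.88% of the 41 barcodes. Epcam, Krt19, Cdh1, Cldn3 and Cldn7 were at 0. Pooled over libraries, the large barcodes by these markers resembled tumour cells more than any other annotated type.

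S and G2/M members were abundant in the large barcodes. S members made up 0.171% of UMIs and G2/M members 0.251%, against 0.117% and 0.172% in tumour cells at 37C. By library the G2/M level was 0.311, 0.293, 0.16 and 0.326% in large barcodes and 0.122, 0.178, 0.146 and 0.219% in tumour cells of the 37C libraries, so it was higher in large barcodes in each of the 4. The S level was 0.17, 0.193, 0.132 and 0.223% against 0.0847, 0.108, 0.108 and 0.15%, again higher in each. The S share of phase UMIs was 40.5% (38.9 to 42.1), close to the 40.9% of tumour cells. At least 1 phase UMI was found in 103 of 105 (98.1%, median 7630 UMIs), and at 200 UMIs per barcode the expected share was 47.4%, against 38.4% for tumour cells at 37C. A large barcode held UMIs of 0 to 28 of the 30 phase genes, with a median of 13, and 9 held S members only, 3 G2/M members only, 91 both and 2 neither. The single large barcode at 4C had 0.139% S and 0.654% G2/M UMIs.

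Level also moved with UMIs within the classes. In tumour cells of all libraries G2/M members were at 0.154% in cells of 500 to 1000 UMIs, 0.12% at 1000 to 2000 and 0.178% at 2000 to 5000. In large barcodes they were at 0.217% from 5000 to 10000 UMIs (86 barcodes) and 0.339% from 10000 to 20000 (19 barcodes). S members were at 0.129, 0.103, 0.108, 0.158 and 0.203% in the same 5 classes. At the limit of 5000 UMIs itself, the large barcodes just above it, of 5018, 5032 and 5044 UMIs, had summed S and G2/M shares of 0.12, 0.417 and 0.0198%, and unannotated barcodes just below, of 3700, 4241 and 4683 UMIs, had 0.0541, 0.141 and 0.0214%.

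Member by member, the large barcodes were compared with all annotated cells of the same 37C libraries, with the library as a block. A gene could pass the filter through its level in the large barcodes alone. Of 30 members tested 12 were higher, against 4.63% of all 3783 genes, and 1 was lower, against 9.86%. Ccnd2, the lymphocyte D cyclin, was the lower one (-2.39, edgeR quasi-likelihood adjusted p = 7.14e-06). The 12 were Top2a, Cks1b, Ube2c, Cdk1 and Birc5 of G2/M, Mcm5, Mcm6, Mcm7, Rrm1 and Rrm2 of S, and Ccnd1 and Tubb5. Their log2 differences ran from 0.34 for Tubb5 to 1.43 for Cdk1. The median of the 30 members was 0.69 and that of all genes 0.02. This sum over annotated cells holds macrophages and lymphocytes, which the large barcodes by their markers hold less of. Leaving out 1 library at a time left 5 to 16 members called, and 391 to 536 of all genes. Members called were fewest without 37C no inhibitor B (4 higher) and without 37C no inhibitor A (8 higher).

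The promoters of 4 G2/M members and 2 S members from that list are shown as examples of windows with the motifs of their set. Of the called phase members not shown, Birc5 has no CHR or CCAAT match, Rrm1 and Rrm2 have no E2F match, and 1 of the windows of Mcm7 has one. Sequences are RefSeq windows on GRCm38.p6, from 250 bases before to 50 after a gene's start, written 5′ to 3′ on the gene's strand. Capitals mark matches, on either strand, to the CHR element (TTTGAA, or its complement), the CCAAT box and the E2F site (TTTCCCGC or TTTGGCGC).
Top2a, chr11:99024140-99024439, strand -: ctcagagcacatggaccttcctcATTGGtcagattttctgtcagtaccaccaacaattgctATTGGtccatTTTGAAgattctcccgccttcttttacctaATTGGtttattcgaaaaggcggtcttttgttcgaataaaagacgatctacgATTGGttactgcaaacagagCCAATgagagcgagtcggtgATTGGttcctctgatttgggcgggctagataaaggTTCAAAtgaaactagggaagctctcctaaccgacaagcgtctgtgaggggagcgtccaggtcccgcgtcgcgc
Cks1b, chr3:89418242-89418541, strand -: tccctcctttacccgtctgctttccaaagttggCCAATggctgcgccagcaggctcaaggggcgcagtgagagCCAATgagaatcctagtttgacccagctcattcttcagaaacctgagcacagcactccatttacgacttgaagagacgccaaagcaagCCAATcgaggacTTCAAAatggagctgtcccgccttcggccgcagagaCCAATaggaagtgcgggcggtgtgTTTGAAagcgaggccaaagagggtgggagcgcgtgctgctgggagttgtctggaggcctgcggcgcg
Ube2c, chr2:164769679-164769978, strand +: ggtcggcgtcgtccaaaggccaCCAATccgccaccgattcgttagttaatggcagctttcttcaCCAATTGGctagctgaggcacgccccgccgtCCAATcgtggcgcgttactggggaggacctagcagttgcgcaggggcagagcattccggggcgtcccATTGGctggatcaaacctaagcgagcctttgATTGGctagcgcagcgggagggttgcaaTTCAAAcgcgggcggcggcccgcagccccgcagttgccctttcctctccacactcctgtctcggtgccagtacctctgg
Cdk1, chr10:69352863-69353162, strand -: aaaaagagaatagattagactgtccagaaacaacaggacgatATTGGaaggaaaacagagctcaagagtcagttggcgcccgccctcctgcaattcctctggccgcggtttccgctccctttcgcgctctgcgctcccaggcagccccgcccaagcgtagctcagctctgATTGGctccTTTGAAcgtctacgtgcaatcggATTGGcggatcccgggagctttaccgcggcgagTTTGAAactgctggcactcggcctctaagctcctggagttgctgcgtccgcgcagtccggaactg
Mcm6, chr1:128359656-128359955, strand -: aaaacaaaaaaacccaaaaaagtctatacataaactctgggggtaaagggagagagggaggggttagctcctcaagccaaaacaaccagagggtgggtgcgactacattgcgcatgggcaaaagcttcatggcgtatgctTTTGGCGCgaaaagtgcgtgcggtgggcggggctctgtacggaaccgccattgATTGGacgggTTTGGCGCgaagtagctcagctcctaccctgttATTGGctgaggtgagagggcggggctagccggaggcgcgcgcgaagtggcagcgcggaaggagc
Mcm5, chr8:75109259-75109558, strand +: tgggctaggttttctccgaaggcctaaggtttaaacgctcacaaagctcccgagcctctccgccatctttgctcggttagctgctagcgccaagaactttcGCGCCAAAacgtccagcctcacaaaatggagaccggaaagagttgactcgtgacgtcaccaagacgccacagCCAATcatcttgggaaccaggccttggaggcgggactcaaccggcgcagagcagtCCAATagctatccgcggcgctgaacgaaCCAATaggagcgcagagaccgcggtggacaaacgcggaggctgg
In Ube2c a CCAAT match on each strand overlaps the other. The table held windows for 29 members (31 windows); Mcm4, Ccne2, Ccna2, Tpx2, Aurkb, Ccnd1, Ccnd2, Stmn1 and H2afz have no entry. CHR was found in 12 of 15 G2/M windows and 1 of 11 S windows, against 17.9% of all 32851 promoter windows. CCAAT was found in 14 of 15 G2/M windows and 9 of 11 S windows, against 37.4% of all, and 13 G2/M windows had at least 2 matches, against 11.7% of all. The E2F site was found in 4 of 11 S windows (Mcm3, Mcm5, Mcm6 and 1 of Mcm7) and 0 of 15 G2/M windows, against 1.565% of all. A match is a run of letters and not evidence of binding.

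Against tumour cells alone, the annotated type nearest by markers, 26 members were tested and 2 were higher in large barcodes, against 0.558% of 2865 genes. Top2a (chr11:98992943-99024189, minus strand) was at 376, 393, 252 and 421 CPM in the large barcodes and 137, 266, 136 and 167 CPM in the tumour cells of the 37C libraries. It was higher in each library, by 0.97 on the log2 scale (SE 0.19, edgeR quasi-likelihood adjusted p = 0.00224), and the call held without each library in turn, with adjusted p values up to 0.0429. Cks1b (chr3:89415472-89418383, minus strand) was at 330, 478, 264 and 390 CPM against 160, 248, 144 and 300 CPM, higher in each library, by 0.70 (SE 0.18, adjusted p = 0.0316). It was not called without 37C inhibitor A (adjusted p = 0.165), without no inhibitor A (0.103) or without no inhibitor B (0.201).

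The remaining members leaned the same way without being called. Here too a gene could pass the filter through its level in the large barcodes alone. Of the 26 tested 25 had positive values, with a median of 0.44 against -0.00 over all genes, and 13 had an unadjusted p under 0.05, against 14.2% of all genes. Cdk1, the mitotic kinase, was at 1.18 (SE 0.34, adjusted p = 0.0524) and Ube2c at 0.86 (SE 0.25, adjusted p = 0.0549). The 10 S members had a median of 0.62 and included Mcm4 at 1.04 (adjusted p = 0.156) and Rrm1, the large subunit of ribonucleotide reductase, at 0.82 (adjusted p = 0.107). Cdc20 was the one negative value, -0.15 (adjusted p = 0.851). Ccnd1 at 0.10 and Tubb5 at 0.02 (adjusted p = 0.733 and 0.958) did not follow the phase genes. Against tumour cells of at least 2000 UMIs, Top2a and Cks1b were also called (1.00, adjusted p = 0.00561, and 0.83, adjusted p = 0.0248, edgeR quasi-likelihood test).

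**Figure D5:**
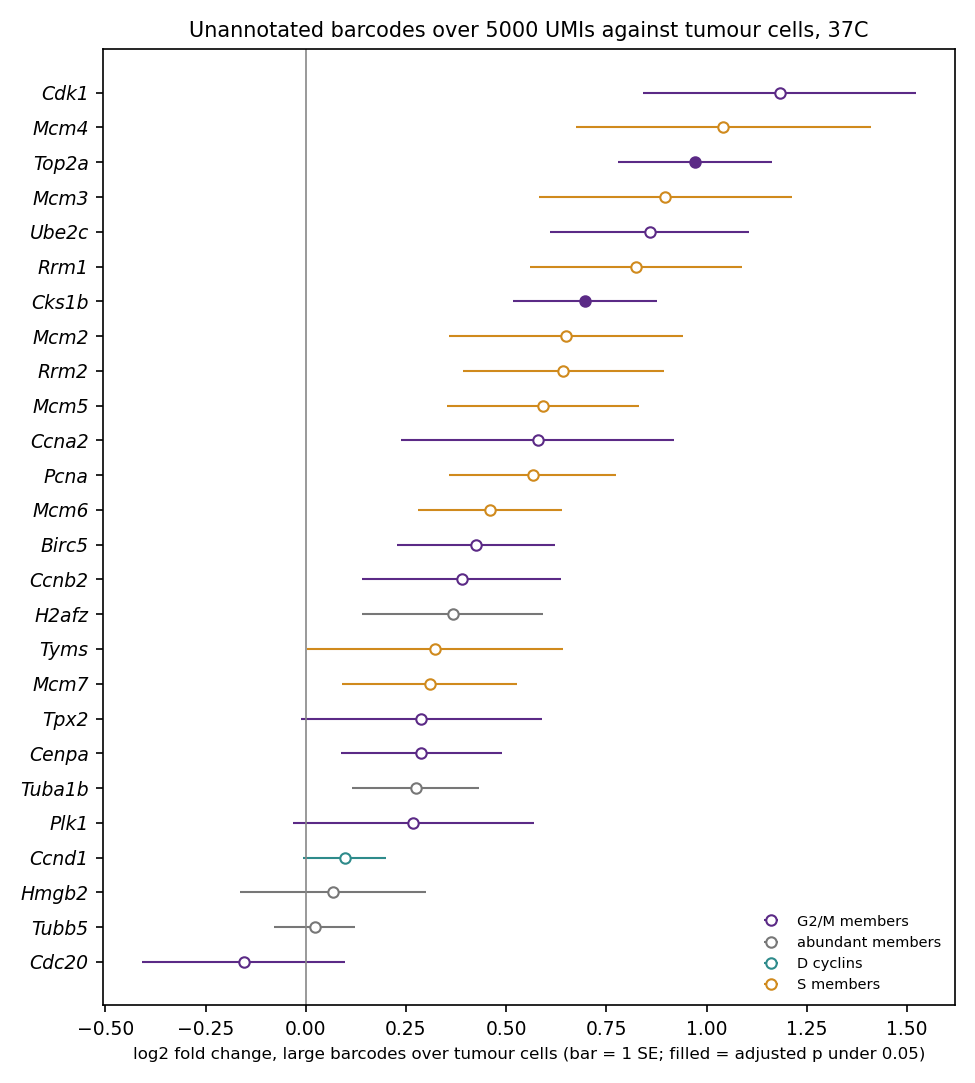
Log2 difference between large barcodes and annotated tumour cells of the 37C libraries for the 26 members tested, with bars of 1 SE, sorted by size and coloured by role; a filled symbol marks an adjusted p under 0.05. Top2a at 0.97 and Cks1b at 0.70 are called, and 25 of 26 values lie to the right of 0.

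Which barcodes are summed therefore changes the temperature comparison. Over all listed barcodes of each library 34 members were tested, 19 were higher at 37C, against 9.18% of 7515 genes, and 2 were lower, against 7.98%. With the large barcodes left out of those sums, a choice made after seeing the data, 8 of 30 were higher, against 7.43% of 6406 genes, and 2 lower, against 5.34%. The 8 were Tuba1b, Ube2c, Birc5, Tubb5, Cenpa, Ccnd1, Cks1b and Mcm3. The 2 lower ones were Ccnd2 and Ccnd3 in both. Top2a went from 1.15 (adjusted p = 0.00387) with the large barcodes to 0.69 (adjusted p = 0.135) without them, and Cdk1 from 1.70 (adjusted p = 0.00972) to 1.19 (adjusted p = 0.155), by edgeR's quasi-likelihood test. With annotated cells and large barcodes together 31 members were tested. Tuba1b, Ube2c and Cks1b were higher, against 2.94% of 5099 genes, and Ccnd2 and Ccnd3 lower, against 2.67%. Ccnd3 was lower at 37C in each of these sums and in annotated cells. Depth differed between temperatures in each of these sums, and barcodes without an annotation cannot be told to be cells. In these sums too, a gene could pass the filter through its level at 37C alone.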

How the data were processed

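The 8 deposited library tables hold raw counts (UMIs per gene and barcode) made by the authors, per the submitters' processing notes with GRCm38, featureCounts 1.6.0, STAR 2.7.1a, SAMtools, UMI-tools and Seurat. Settings and cell filters were not given in the sources used here. Values in the authors' deposited expression table are a natural log, ln(1 + UMIs scaled to 10000 a cell); 99.9864% of its values were proportional to the raw counts within a tolerance of 0.001. It served for membership only, and types came from the deposited cell table. Identifiers were matched to GENCODE M21 symbols, 29 of 38 members with the same version. Vector features (13 UMIs) were left out.

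Raw counts were summed per library and barcode set, filtered by filterByExpr, scaled by TMM and fitted with edgeR 4.0.16 (R 4.3.3, limma 3.58.1; glmQLFit and glmQLFTest, two-sided, 4 group means), with Benjamini-Hochberg adjustment over all tested genes. Thinned shares are hypergeometric expectations (NumPy 2.4.6, SciPy 1.17.1). Intervals are exact binomial (Clopper-Pearson) at 95% and cover counting error only. Alternatives, DESeq2 1.42.0 among them, are in the closing section. Members and lists were chosen with earlier results of these data known. Named genes are each member in the temperature fit, those called in other contrasts or else the 2 with the smallest p, and levels by type for the 10 members with the most UMIs, Mki67, Top2a and the D cyclins.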

Additional observations from a re-analysis of the deposited data

Results flagged for a closer look

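Barcodes that the cell table does not name and that lie at or below 5000 UMIs also held S and G2/M members. They are given because no test took these barcodes on their own, although the sums over all listed barcodes included them. The only reference is a count of 0, which any level like these exceeds, so these levels were not tested. In the 1133 barcodes of 101 to 5000 UMIs the 30 genes summed to 0.176% of UMIs (784 of 445531). In the 22088 barcodes of at most 100 UMIs they summed to 0.203% (1283 of 630766). Groups of 2 libraries are too small for a test of single libraries that stand apart. The interaction test, which asks whether the temperature effect differed between suspensions without and with inhibitor, called 0 members.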

How the results depend on the processing

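With a single suspension per condition, no spread between suspensions was measured. Annotated sums at 4C hold a fraction of the UMIs at 37C, which limits what low members can show. The letters A and B do not pair the libraries (correlations of deviations -0.03 to 0.24). The replicate block left 1 member called for temperature in annotated cells and 1 in tumour cells, and moved the count of all genes without inhibitor from 36 to 56, at 4C for the inhibitor from 0 to 5 and for the interaction from 0 to 2. It ended no member call.

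Members called for temperature in annotated cells (1) were 0 by DESeq2's Wald test, 0 with libraries thinned to the smallest total (where 3 of the 21 members passed the filter), 2 with no filter, 5 with large barcodes added, 21 over all listed barcodes and 10 over these without the large ones; all genes called (135) were 60, 22, 293, 286, 1290 and 818, and 89 with aliquots summed. Without inhibitor (1) they were 0 by Wald test, by DESeq2's size factors and with no filter, and 5 over all listed barcodes; all genes (36) were 22 by Wald test, 349 over all listed barcodes and 85 with no filter. With inhibitor (0) they were 10 over all listed barcodes and 1 with no filter; all genes (61) were 33 by Wald test, 795, 147 with large barcodes added and 135 with no filter. For the inhibitor at 37C all genes (41) were 8 by Wald test, 256 over all listed barcodes and 75 with no filter, at 4C (0) 2 and 11, and for the interaction (0) 87 and 14. With no filter, tumour cells gave 4 members (main 1) and 120 genes (25), and T cells 14 genes (22). Large barcodes from 10000 UMIs against tumour cells gave 4 members (2) and 99 genes (65). The number of genes tested moved with the barcodes summed and with the filter. For temperature it was 3391 in annotated cells and 5099 with large barcodes added. Over all listed barcodes it was 7515, and 6406 over these without the large ones. Counts of calls from different sums are therefore not comparable as shares.

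Leaving out 1 library at a time gave 0 to 4 members for temperature, 0 to 1 without and 0 to 1 with inhibitor, 0 to 1 for the inhibitor at 37C, 0 to 3 in tumour cells, 5 to 16 for large barcodes against annotated cells and 1 to 2 against tumour cells. All genes called ranged from 80 to 198, 23 to 58, 10 to 165 and 15 to 116 in the first 4, 12 to 63 in tumour cells, 2 to 24 in T cells, 4 to 20 for the inhibitor in tumour cells, 0 to 12 for the inhibitor at 4C, 0 to 17 for the interaction and 18 to 36 against tumour cells. For large barcodes against annotated cells the range was 391 to 536.

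Of 610 alternatives for 50 named member results, 506 kept direction and side of the threshold, 34 lost and 39 gained a call, and 31 turned direction, none of them a called member. Over all listed barcodes the log2 difference for temperature turned to 0.17 for Mcm2, 0.64 for Mcm4, 0.36 for Mcm5, 0.36 for Pcna and 0.46 for Rrm2. Without the large ones it was 0.44 for Mcm4, 0.12 for Pcna and 0.11 for Rrm2. With annotated cells and large barcodes it was 0.0796, 0.0409, 0.50, 0.33 and 0.41 for these 5. With no filter it was 0.0537 for Mcm5, 0.18 for Pcna, 0.23 for Rrm2 and, in T cells, 0.0286 for Hmgb2. Leaving out libraries gave -1.13 to 0.75 for Mcm2, -0.0084 to 0.49 for Ccnd1, -0.0564 to 0.95 for Top2a, -0.36 to 0.0873 for Mcm5, -0.0233 to 0.74 for Mcm7, -0.29 to 0.51 for Pcna, -0.34 to 0.75 for Rrm2, -1.74 to 0.0274 for Ccnd2 with inhibitor at 37C, and in T cells -0.36 to 0.83 for Ccnd2 and -1.01 to 2.59 for Hmgb2. The cause of these turns was not tested.

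Thinned to 500 UMIs, shares of cells with a phase UMI were 54.2% (tumour), 24.4% (macrophages), 42.8% (T), 37.9% (NK) and 69.4% (large), and with at least 2 UMIs at 200 they were 12.2, 1.79, 6.23, 4.47 and 20.9%. The S share without Ccna2 and Cks1b was 45.5% in tumour cells, 45% in those at 37C, 45.4% in large barcodes and 45.1% in annotated cells at 37C, where Hmgb2 in G2/M gave 38.7%. Without 1 library at a time it was 40.4 to 41.7% in tumour cells and 48.9 to 61.7% in T cells. In T cells Hmgb2 gave 47.4% and non-member genes 42.5%, and in NK cells these gave 43.0%. The large barcodes left out of all listed barcodes, tumour cells from 2000 UMIs, and S shares without single libraries are alternatives chosen after seeing the data.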

Other observations

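Outside the 38 members, 90 cell cycle genes were described from a separate list. In the large barcodes against annotated cells at 37C, 36 of them were tested by edgeR's quasi-likelihood test. Of these 6 were higher at an adjusted p under 0.05, against 4.63% of all genes: Tacc3, a spindle protein, by 1.48, Ect2, an activator of cytokinesis, by 1.16, Uhrf1 by 1.04 and Dnmt1 by 0.72, which maintain DNA methylation, Anln, a scaffold of the contractile ring, by 0.90, and Cdca8, a chromosomal passenger subunit, by 0.78 on the log2 scale. The 2 lower ones, against 9.86% of all genes, were Cdkn1a, the p21 inhibitor of cyclin-dependent kinases, at -3.31, and Ccng1, a p53 target, at -0.88. Over all libraries Cdkn1a was at 761 CPM in macrophages, 29.2 in tumour cells and 21.3 in large barcodes. Ccng1 was at 251 CPM in NK cells, 140 in T cells, 135 in macrophages, 54.9 in tumour cells and 50.8 in large barcodes. Neither gene passed the filter in the fit against tumour cells. Against tumour cells alone 0 of 23 were called, and their median was 0.41. The 3 with the most UMIs in annotated cells were Cdk4, the kinase partner of D cyclins, with 260, Tubb4b with 220 and Dut, which removes dUTP, with 215. Cdk4 was at 364 CPM in tumour cells and 409 in large barcodes, and at 174 in NK cells, 148 in T cells and 141 in macrophages.

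In large barcodes, the percent of UMIs from S members and from G2/M members gave a Pearson r of 0.01 and a Spearman rho of 0.36 over 105 barcodes, as a description.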
